A study of Mus musculus with 12 samples.

Results

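Chemokines are small secreted proteins that guide leukocytes along a gradient, and epithelial cells of the kidney are known to make several of them. The named families differ in the spacing of the cysteines near the start of the protein (CC, CXC and CX3C), and each ligand acts on leukocytes that carry its receptor. Many chemokine genes are textbook targets of NF-κB, interferon-inducible ones answer to STAT and IRF factors, and NFAT5, the factor deleted here, drives genes of the response to hypertonic stress. The values of 10 chemokine genes were followed here, of 52015 genes with usable values. The genes were chosen by symbol: Cxcl1, Cxcl2, Cxcl5, Ccl20, Ccl2, Ccl7, Cxcl10, Cxcl12, Cxcl16 and Cx3cl1.

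RNA-seq was performed on 12 cultures of mpkCCD, a mouse cell line of the cortical collecting duct. Scr cells carry a scramble, non-targeting gRNA, and Nfat5-KO cells carry a CRISPR/Cas9 deletion of Nfat5 and come from 2 clones, N1 and N3. Both were kept for 5 days at 300 mosmol/kg (isotonic, Scr_300 and Nfat5-KO_300) or at 600 mosmol/kg (hypertonic, Scr_600 and Nfat5-KO_600), the latter reached with 100 mM NaCl and 100 mM urea. Scr_300 and Scr_600 had 2 libraries each, and Nfat5-KO_300 and Nfat5-KO_600 had 4 each. The table used here holds 1 FPKM value per gene and group (fragments per gene length and mapped reads), so it has no spread between libraries, does not separate the clones, and allows no test. The depth of the libraries is unknown, and every difference below compares 2 group values without a replicate check. FPKM summed over all genes to 212247 in Nfat5-KO_600, 231932 in Scr_600, 251080 in Nfat5-KO_300 and 253756 in Scr_300. Nfat5 itself was at 5.61 FPKM in Scr_300 and 3.47 FPKM in Nfat5-KO_300, and at 600 mosmol/kg it was at 7.93 FPKM with the scramble guide and at 6.88 FPKM in the knockout. A value for the whole gene also counts exons outside an edit, so these values do not check the knockout. Of 16 markers of principal cells, 9 reached 0.5 FPKM in a group, among them the epithelial genes Epcam, Cdh1, Krt8 and Krt18, while the water channel Aqp2 was at most at 0.245 FPKM and the vasopressin receptor Avpr2 at most at 0.0193 FPKM. Of 14 leukocyte markers, 8 were under 0.5 FPKM in every group, among them Ptprc, between 0.00494 and 0.0224 FPKM, and Cd3e, listed at 0, whereas Cd14, Csf1r and Cd68 were above it in all 4 groups.

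Of the 10 chemokines, 2 were too low to judge and 8 reached 0.5 FPKM in at least 1 group. Cxcl12, the homeostatic ligand of CXCR4, was listed at 0 in all 4 groups. Ccl7, a monocyte ligand, was listed at 0 in 3 groups and at 0.0355 FPKM in Scr_600. Both were left out of the comparisons, and a low value does not show that a transcript is absent. Among the others, Cxcl5 stood far above the rest, and made up between 82.8% and 84.9% of the summed FPKM of the 10 genes in every group. In Scr_600 it ranked 21 of all 52015 genes by FPKM, and in Nfat5-KO_600 it ranked 93.

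**Figure D1:**
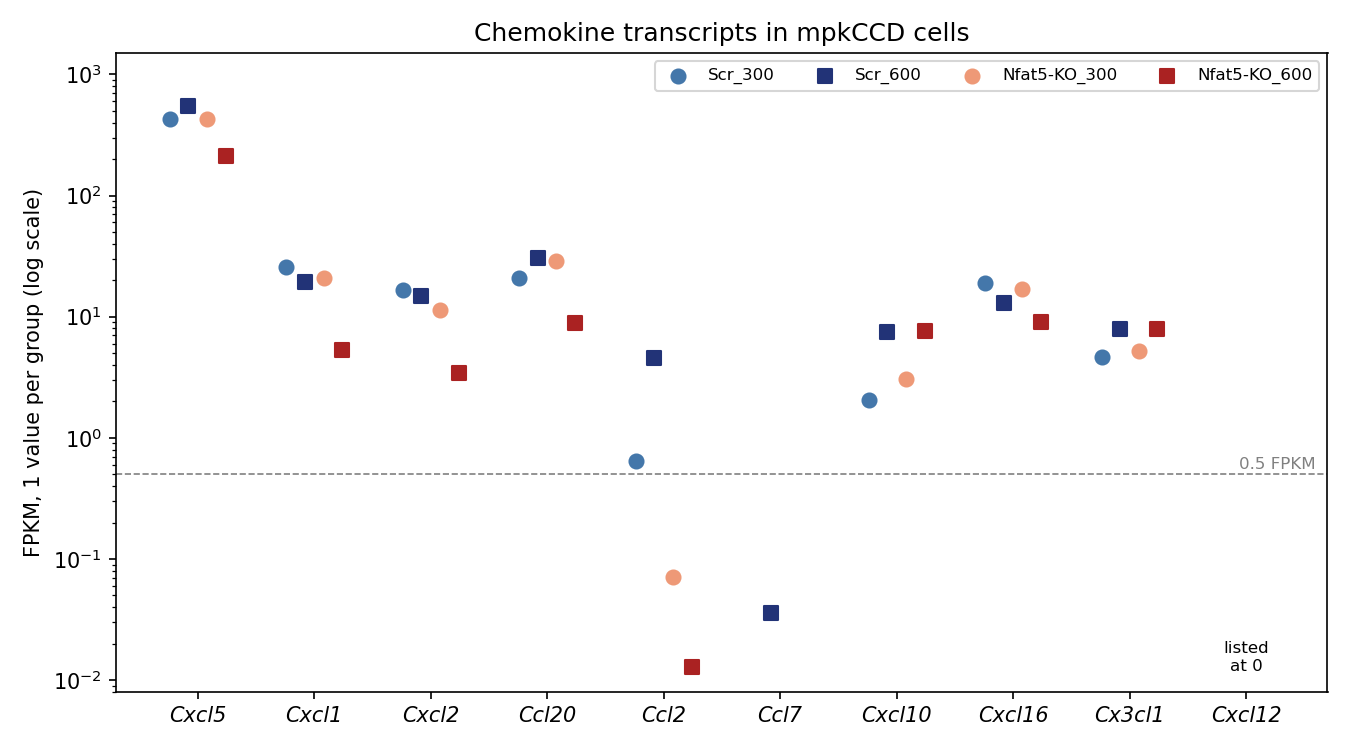
FPKM (log scale) of the 10 chemokines, with 1 point per group and no error bars because the table has 1 value per group; values of 0 are not drawn and the dashed line marks 0.5 FPKM. Nfat5-KO_600 is the lowest point for Cxcl5, Cxcl1, Cxcl2, Ccl20, Ccl2 and Cxcl16 (all genes: 32.8% were lowest there). For Cxcl10 and Cx3cl1 both 600 mosmol/kg points lie above both 300 mosmol/kg points.

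The neutrophil ligands Cxcl1, Cxcl2 and Cxcl5, which act on CXCR2, had their lowest values in Nfat5-KO_600 (all genes: 32.8% were lowest there). Cxcl5 was at 428 FPKM in Scr_300, 550.0 in Scr_600, 429 in Nfat5-KO_300 and 213 in Nfat5-KO_600. Cxcl1 was at 25.5 FPKM in Scr_300, 19.2 in Scr_600, 20.7 in Nfat5-KO_300 and 5.31 in Nfat5-KO_600. Cxcl2 was at 16.7 FPKM in Scr_300, 14.7 in Scr_600, 11.3 in Nfat5-KO_300 and 3.41 in Nfat5-KO_600. For each of the 3 genes the other groups lay closer to one another than any of them lay to Nfat5-KO_600 on the log scale. Ccl20, which attracts CCR6-bearing lymphocytes and dendritic cells, followed the same order at its low end, with 20.7 FPKM in Scr_300, 30.6 in Scr_600, 28.9 in Nfat5-KO_300 and 8.86 in Nfat5-KO_600.

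Cxcl1 and Cxcl2 lie next to each other and carry a similar stretch before their start sites. Promoters of 6 of the 10 genes were matched by symbol in RefSeq (GRCm38). The last 120 bases before the RefSeq start are shown for the pair, for Ccl20, which like the pair was lowest in Nfat5-KO_600, and for Cxcl10, which was not. Capitals mark matches on either strand to a loose NF-κB pattern, GGG and CC with 5 bases of any kind between them, and overlapping matches run together. The windows are Cxcl1 on chr5:90891125-90891244 (plus strand), Cxcl2 on chr5:90903779-90903898 (plus strand), Ccl20 on chr1:83116646-83116765 (plus strand) and Cxcl10 on chr5:92348890-92349009 (minus strand).
Cxcl1: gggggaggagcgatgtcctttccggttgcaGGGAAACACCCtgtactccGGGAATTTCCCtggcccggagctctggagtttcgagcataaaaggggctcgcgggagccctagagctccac
Cxcl2: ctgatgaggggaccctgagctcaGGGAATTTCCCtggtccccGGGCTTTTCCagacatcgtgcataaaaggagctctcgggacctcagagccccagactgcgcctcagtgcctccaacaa
Ccl20: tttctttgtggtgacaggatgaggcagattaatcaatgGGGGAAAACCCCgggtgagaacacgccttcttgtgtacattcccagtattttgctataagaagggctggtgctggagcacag
Cxcl10: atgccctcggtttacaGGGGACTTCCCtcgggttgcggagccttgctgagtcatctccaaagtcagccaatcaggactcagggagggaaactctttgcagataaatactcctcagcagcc
The word GGGAATTTCC stood in both Cxcl1, from 71 to 62 bases before the start, and Cxcl2, from 97 to 88 bases before it. In the 250 bases before the start, the NF-κB pattern was found in 5 of the 6 genes (not in Cx3cl1), and in 45.8% of all 32851 promoters. The core TGGAAA, shared by NFAT family sites, was found in Cxcl2 and Cxcl10, against 18.6% of all promoters, and in Cxcl2 it overlaps the second NF-κB match. An interferon-type pattern, GAAA and GAAA with 2 bases of any kind between them, was found in Cxcl10 and overlaps its TGGAAA match, against 2.98% of all promoters. A match is a string of letters, and no binding was measured.

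Under isotonic conditions most chemokines were within 2-fold between the knockout and Scr cells. Of the 8 genes compared, 1 was past 2-fold between Nfat5-KO_300 and Scr_300 in either direction (all genes: 4.17%). It was lower in the knockout (all genes: 2.44% lower), and 0 were higher (all genes: 1.73%). The log2 ratios of FPKM + 0.1 had a median of -0.08 over the 8 genes and of -0.0015 over the 12704 genes compared. That 1 gene was Ccl2, the monocyte ligand of CCR2, at 0.640 FPKM in Scr_300 and 0.0712 FPKM in Nfat5-KO_300. Ccl2 entered the count and the median only through Scr_300. The second value is under 0.1 FPKM, so no ratio is given for it. Cxcl5 had a log2 ratio of 0.00, Cxcl1 of -0.30 and Cxcl2 of -0.56, while Ccl20 had one of 0.48 and Cxcl10 of 0.54.

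Under hypertonic conditions 5 of the 8 chemokines were past 2-fold between Nfat5-KO_600 and Scr_600 (all genes: 7.44% in either direction). All 5 were lower in the knockout (all genes: 3.68%), and 0 were higher (all genes: 3.76%). The median log2 ratio of all 8 chemokines was -1.57, against -0.02 over the 13063 genes compared. Cxcl2 was 4.32-fold lower, with a log2 ratio of -2.08. Cxcl1 was 3.61-fold lower (-1.83), Ccl20 3.45-fold lower (-1.78) and Cxcl5 2.59-fold lower (-1.37). The fifth gene, Ccl2, had 4.52 FPKM in Scr_600 but 0.0129 FPKM in the knockout at the same osmolality. Ccl2 entered the count of 5 and the median only through Scr_600, where it reached 0.5 FPKM. No ratio is given for it. Cxcl16, a transmembrane ligand of CXCR6, was lower by less than 2-fold (13.0 against 9.10 FPKM, log2 ratio -0.51). Cxcl10 and Cx3cl1 were nearly level between the genotypes at 600 mosmol/kg, with log2 ratios of 0.03 and -0.0024.

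**Figure D2:**
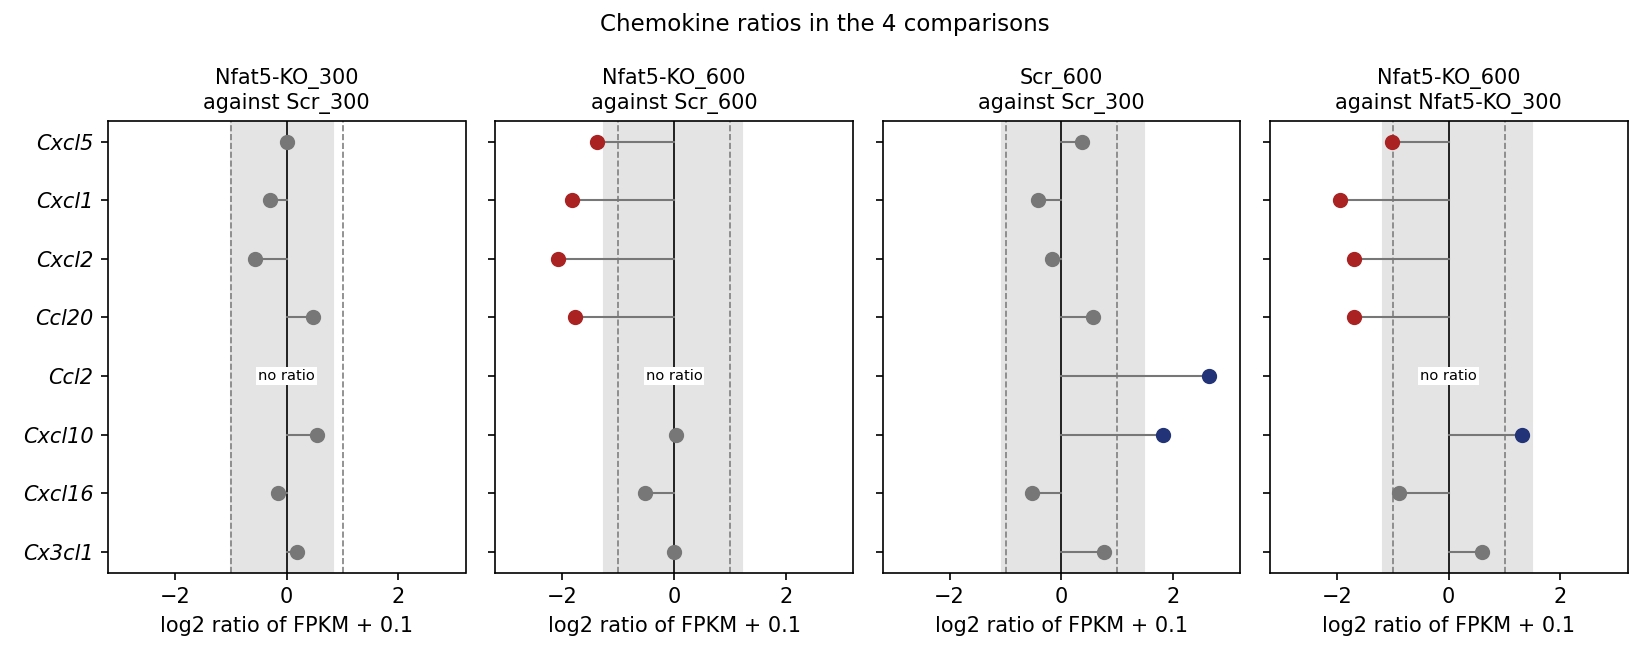
Log2 ratios of FPKM + 0.1 for 8 chemokines in the 4 comparisons, where dashed lines mark 2-fold, the grey band holds 95% of all genes compared, red points are at least 2-fold lower and blue points at least 2-fold higher; "no ratio" marks a group under 0.1 FPKM. Cxcl5, Cxcl1, Cxcl2 and Ccl20 are red in both comparisons that involve Nfat5-KO_600, which share that group.

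In Scr cells the change from 300 to 600 mosmol/kg split the chemokines. Of the 8 compared, 2 were past 2-fold (all genes: 7.67% in either direction). Both were higher in Scr_600 (all genes: 4.81%) and 0 were lower (all genes: 2.86%). The median log2 ratio of all 8 was 0.46, against -0.04 over 12929 genes. Ccl2 was 7.06-fold higher (0.640 to 4.52 FPKM, log2 ratio 2.64), and 90 of the genes compared had a higher ratio. Cxcl10, the interferon-inducible ligand of CXCR3, was 3.66-fold higher (2.06 to 7.51 FPKM, log2 ratio 1.82). Cx3cl1, the transmembrane ligand fractalkine, had a log2 ratio of 0.77 (4.63 to 7.98 FPKM), Ccl20 one of 0.56 and Cxcl5 one of 0.36. Cxcl16 had a log2 ratio of -0.52, Cxcl1 of -0.41 and Cxcl2 of -0.17.

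In Nfat5-KO cells the same change in medium went with lower values of the neutrophil ligands and Ccl20. Of 7 genes compared (Ccl2 was too low in both groups), 5 were past 2-fold between the media (all genes: 10.4% in either direction). Of these, 4 were lower at 600 mosmol/kg (all genes: 4.11%) and 1 was higher (all genes: 6.25%). Cxcl1 was 3.90-fold lower (log2 ratio -1.94), Cxcl2 3.30-fold lower (-1.69), Ccl20 3.27-fold lower (-1.70) and Cxcl5 2.02-fold lower (-1.01). Cxcl5 sits at the 2-fold line, and its log2 ratio was -0.95 when the groups were rescaled by median-of-ratios factors. Cxcl10 was 2.52-fold higher, from 3.04 to 7.67 FPKM. Cx3cl1 had a log2 ratio of 0.59 and Cxcl16 of -0.88. The median log2 ratio of the 7 genes was -1.01, against -0.04 over 12982 genes.

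Of the 7 chemokines with a ratio in both genotypes, 4 differed by at least 2-fold in their ratio of 600 to 300 mosmol/kg. The log2 ratio of 600 to 300 mosmol/kg in Nfat5-KO cells minus that in Scr cells was at most -1 for Cxcl1, Cxcl2, Cxcl5 and Ccl20 (all genes: 3.16%, and 7.04% past 2-fold in either direction), and 0 chemokines were past 2-fold in the other direction (all genes: 3.88%). It was -2.25 for Ccl20, -1.53 for Cxcl1, -1.52 for Cxcl2 and -1.37 for Cxcl5. It was -0.51 for Cxcl10, -0.36 for Cxcl16 and -0.18 for Cx3cl1. With 1 value per group these differences were not tested. They contain the Nfat5-KO_600 value that the comparisons above also contain, so they are no separate evidence.

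**Figure D3:**
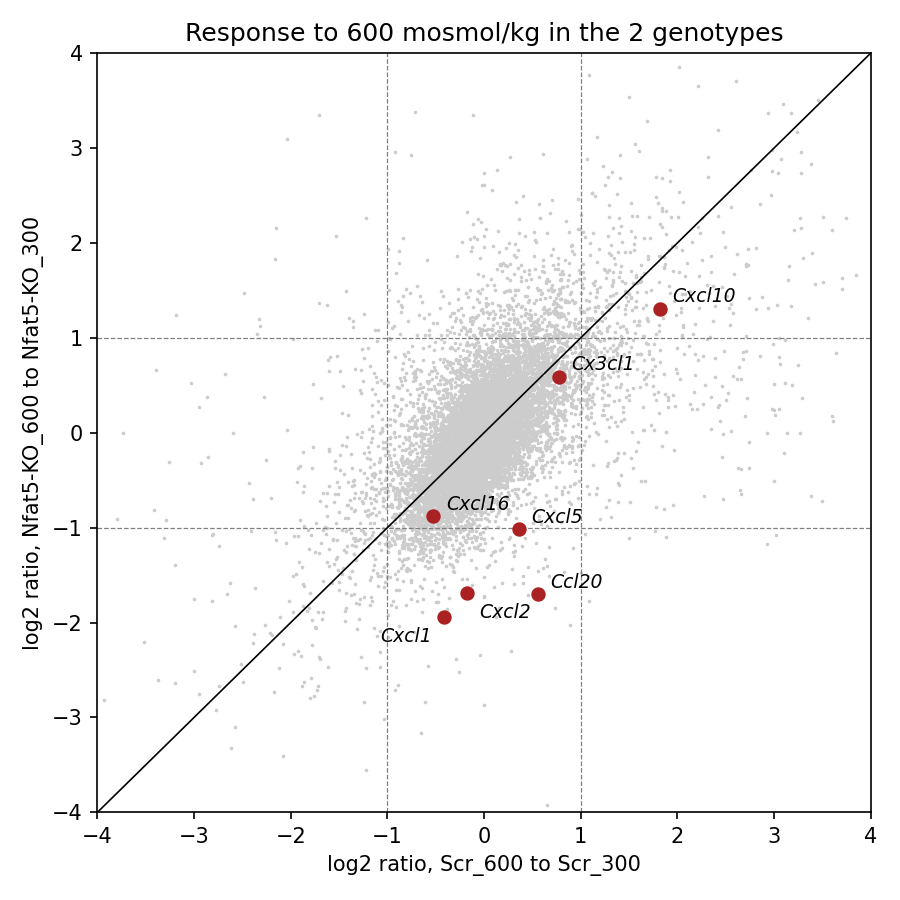
Log2 ratio of 600 to 300 mosmol/kg in Scr cells (x axis) and with Nfat5 deleted (y axis) for 13398 genes in grey (16 of 13414 lie beyond 4) and 7 chemokines in red; dashed lines mark 2-fold and the solid line equal ratios. Cxcl10 and Cx3cl1 lie near the solid line on the high side, whereas Ccl20, Cxcl5, Cxcl1 and Cxcl2 lie well below it.

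The genes Cxcl5, Cxcl1 and Cxcl2 belong to 1 cluster of CXC ligands. Cxcl5 (chr5:90759360-90761624), Cxcl1 (chr5:90891241-90893115) and Cxcl2 (chr5:90903871-90905938) span 147 kb of GRCm38 in the GENCODE M21 annotation. Ppbp, a neutrophil ligand gene between Cxcl5 and Cxcl1 that was on the list of other chemokines, was abundant too. It was at 289 FPKM in Scr_300, 184 in Scr_600, 345 in Nfat5-KO_300 and 38.4 in Nfat5-KO_600. Its log2 ratio was -2.26 in Nfat5-KO_600 against Scr_600 and -3.16 against Nfat5-KO_300. The other ligands of the cluster, Pf4, Cxcl3 and Cxcl15, did not reach 0.5 FPKM. The only other genes beside the cluster that reached 0.5 FPKM in a group were 5830473C10Rik, Rassf6, Gm42530, Mthfd2l, Gm19610 and Ereg. Of these few genes, 0 were past 2-fold lower in Nfat5-KO_600 against Scr_600 (all genes: 3.68%). Ereg was under 0.5 FPKM in both groups of that comparison. Against Nfat5-KO_300, 3 of the same few genes were past 2-fold lower (all genes: 4.11%), namely 5830473C10Rik (log2 ratio -1.14), Gm19610 (-1.10) and Ereg (-1.84). Mthfd2l, a folate enzyme gene beyond Cxcl2, had a log2 ratio of -0.51 against Scr_600 and of -0.30 against Nfat5-KO_300. Rassf6 on the other side had log2 ratios of -0.89 and 0.54. In Nfat5-KO_600 against Scr_600 the median over the 49 other genes within 5 Mb of Cxcl5 was -0.10. Of these, 3 were at least 2-fold lower and 3 higher (all genes: 3.68% and 3.76%). Against Nfat5-KO_300 the median over 48 such genes was -0.13. There 5 were at least 2-fold lower and 2 higher (all genes: 4.11% and 6.25%). Ccl20 (chr1:83116766-83119167) lies on another chromosome. The 38 genes within 5 Mb of it had a median of 0.07 in Nfat5-KO_600 against Scr_600, and 39 genes had one of -0.10 against Nfat5-KO_300.

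**Figure D4:**
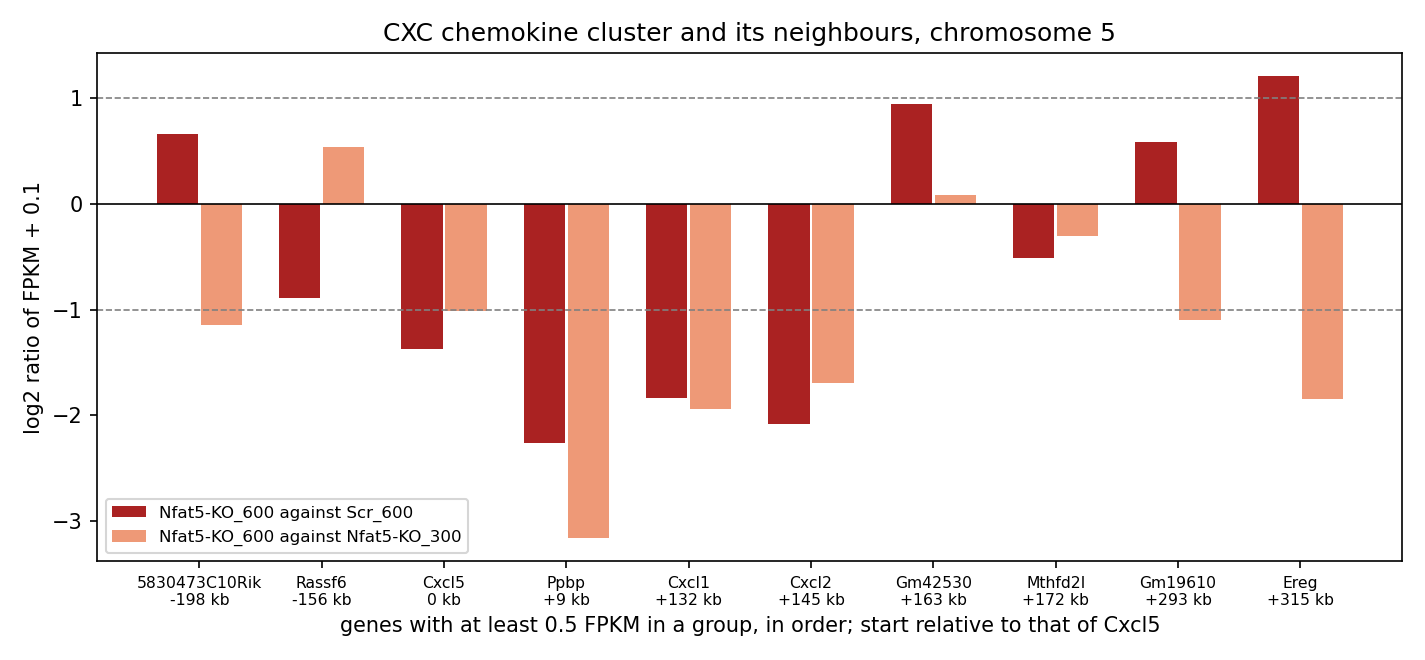
Log2 ratios of FPKM + 0.1 for genes that reached 0.5 FPKM, in order along chromosome 5 with the distance of each start from that of Cxcl5; dark bars are Nfat5-KO_600 against Scr_600, light bars Nfat5-KO_600 against Nfat5-KO_300, and dashed lines mark 2-fold. Cxcl5, Ppbp, Cxcl1 and Cxcl2 are past -1 on both, while Ereg, an EGF receptor ligand, is at 1.21 and -1.84. The 1.21 compares 0.384 FPKM in Nfat5-KO_600 with 0.109 FPKM in Scr_600, both under 0.5 FPKM.

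Ccl2 (chr11:82035571-82037453) lies 8.26 kb from Ccl7. By the Euclidean distance between centred log2(FPKM + 0.1) values over the 4 groups, the genes most like Ccl2 were Nupr1, a stress-inducible regulator (8.98, 58.2, 1.47 and 2.73 FPKM in Scr_300, Scr_600, Nfat5-KO_300 and Nfat5-KO_600), the heat shock gene Hspa1a and Wisp1, at distances of 1.07, 1.39 and 1.48. Both knockout values of Ccl2 were under 0.1 FPKM (0.0712 and 0.0129), so its distances rest in part on the added 0.1 FPKM. Nearest to Cxcl5 were Gm25117, Maff and Mpp1, at distances of 0.133, 0.141 and 0.180. The third nearest gene to Cxcl1 was Cxcl2, at 0.351, after 5730559C18Rik and Gm22098. Nearest to Cxcl2 were Stxbp6, Gm22098 and 5730559C18Rik, at distances of 0.236, 0.248 and 0.288. Nearest to Ccl20 were Mir1964, Gm5425 and Inpp4b, at distances of 0.182, 0.197 and 0.219. For Cxcl10 they were Dok3, Gm16350 and Car2 (0.208, 0.216 and 0.218), and for Cxcl16 Yif1b, Rpsa-ps2 and Dph6 (0.0269, 0.0412 and 0.0452). Mir1964, Gm22098, Gm16350 and Inpp4b were under 1 FPKM in every group. Mir1964 and Gm22098 were under 0.1 FPKM in Nfat5-KO_600, and Gm16350 was under it in Scr_300. With 4 values per gene, close matches are easily found among many genes.

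Reads of some members can be shared with another gene. Of the different 50-base words in the annotated transcripts, 16.9% for Cxcl16 also occur, on either strand, in Zmynd15, which overlaps it on the opposite strand. Zmynd15 was between 0.339 and 0.553 FPKM, far under Cxcl16. For Cxcl2 5.84% were shared with Cxcl3, for Cxcl10 3.59% with Art3, and for Cxcl5 0.693% with other genes. Cxcl3 and Art3 were under 0.1 FPKM in every group. For Cxcl1, Ccl20, Ccl2 and Cx3cl1 the share was 0%. Cxcl1 and Cxcl2 also stood out in their 3′ UTRs, where the AU-rich word TATTTAT, a mark of short-lived cytokine mRNAs, occurred 6 times in Cxcl1 and 7 times in Cxcl2. As many as 6 copies were found in 0.261% of 10360 expressed genes. Cxcl5 and Ccl20 had 1 copy each, as 26.5% of genes have at least 1, and Ccl2, Cxcl10 and Cxcl16 had 0.

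The receptors of these ligands were close to 0. Of 23 chemokine receptor genes, 22 were under 0.5 FPKM in every group. Cxcr2, Ccr2, Ccr6 and Cx3cr1 did not pass 0.00324 FPKM, Cxcr6 did not pass 0.0795 FPKM, and Cxcr3 and Cxcr4 were listed at 0. The exception, Ccrl2, a non-signalling receptor, was at 0.959 FPKM in Scr_300, 0.517 in Scr_600, 0.239 in Nfat5-KO_300 and 0.270 in Nfat5-KO_600. Of 14 genes that process or hold chemokines, 10 were compared, and 0 were past 2-fold between the genotypes at 600 mosmol/kg (all genes: 7.44%). Adam10 and Adam17, which shed Cxcl16 and Cx3cl1 from the membrane, had log2 ratios of 0.24 and 0.12 there. In Scr_600 against Scr_300 1 of the 10 was past 2-fold (all genes: 7.67%), Ndst1, an enzyme of heparan sulfate synthesis, with a log2 ratio of 1.10.

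Ligands outside the 10 genes gave a mixed picture. Of 27 other CC and CXC chemokines 7 reached 0.5 FPKM. Between the genotypes at 600 mosmol/kg all 7 were compared. In the knockout 1 was past 2-fold lower (Ppbp, all genes: 3.68%) and 1 past 2-fold higher (Cxcl17, from 0.146 to 0.683 FPKM, all genes: 3.76%). Ccl5, an interferon- and NF-κB-inducible ligand of lymphocyte receptors, was at 3.55 FPKM in Scr_300, 12.1 in Scr_600, 3.81 in Nfat5-KO_300 and 6.58 in Nfat5-KO_600. Like Cxcl10 it was higher at 600 mosmol/kg in both genotypes, with a log2 ratio of 1.74 with the scramble guide against 0.77 in the knockout.

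Of 24 genes of the NF-κB pathway 22 were compared in Nfat5-KO_600 against Scr_600, and 0 were past 2-fold (all genes: 7.44%), with 11 higher, 11 lower and a median log2 ratio of -0.06. Nfkbia, an inhibitor and feedback target of the pathway, had a log2 ratio of -0.47, Nfkb1 of -0.53 and Rela, the main activating subunit, of -0.12. In Nfat5-KO_600 against Nfat5-KO_300 16 of 23 were lower (all genes: 52.9%) and 7 higher, with a median of -0.24. Of the 23, 2 were at least 2-fold lower there (all genes: 4.11%). Of these 2, the feedback inhibitor Tnfaip3 had at least 0.5 FPKM in both groups (4.44 to 1.69 FPKM, log2 ratio -1.35). For the difference in response between the genotypes 14 of 23 were lower (all genes: 52.0%) and 9 higher, with a median of -0.18. Past 2-fold in that difference, 1 was higher (all genes: 3.88%) and 0 were lower (all genes: 3.16%). In Scr_600 against Scr_300 1 of 23 was at least 2-fold lower (all genes: 2.86%).

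Of 18 cytokine genes, 9 were compared in Nfat5-KO_600 against Scr_600. There 1 was at least 2-fold lower (all genes: 3.68%), and 7 of the 9 were lower at all (all genes: 52.2%). The median was -0.54, against -0.02 over all genes. Tnf was low throughout, with 0.647 FPKM in Scr_600 but 0.127 in the knockout. Csf1, the macrophage growth factor, had a log2 ratio of 0.68 from 300 to 600 mosmol/kg with the scramble guide and of -0.47 in the knockout. Of 22 cytokine and innate receptors, 19 were compared in Nfat5-KO_600 against Scr_600. Of these, 2 were at least 2-fold lower and 0 higher (all genes: 3.68% and 3.76%), with a median of -0.08. Of 14 factors that bind or degrade AU-rich mRNAs, 13 were compared and 0 were past 2-fold there (all genes: 7.44%, median of the 13 -0.01). In Nfat5-KO_600 against Nfat5-KO_300 1 of the 13, the RNase Zc3h12a, was at least 2-fold lower (log2 ratio -1.08, all genes: 4.11% lower).

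Of 16 interferon-linked regulators compared, 7 were at least 2-fold higher in Scr_600 than in Scr_300 (all genes: 4.81%) and 0 lower, with a median of 0.75. In Nfat5-KO cells 4 of the 16 were at least 2-fold higher at 600 mosmol/kg (all genes: 6.25%) and 0 lower, with a median of 0.35. Ifit3, an antiviral effector, had a log2 ratio of 2.82 with the scramble guide and of 1.94 in the knockout, and Ifit1 of 2.62 and 1.89. Between the genotypes at 600 mosmol/kg, 3 of the 16 were past 2-fold lower in the knockout and 1 higher (all genes: 3.68% and 3.76%). The median was -0.57, against -0.02 over all genes, whereas Cxcl10 was level. Irf7, which induces interferon genes, had 3.27 FPKM in Scr_600 but 1.29 FPKM in the knockout.

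Under isotonic conditions 4.17% of all genes were past 2-fold between the genotypes, 2.44% lower and 1.73% higher in Nfat5-KO_300. Of the NF-κB genes 1 of 23 was past 2-fold lower in Nfat5-KO_300 and 0 were past 2-fold higher. Of the interferon-linked regulators 1 of 16 was past 2-fold lower and 0 were past 2-fold higher. Of the cytokine and innate receptors 1 of 18 was past 2-fold lower and 0 were past 2-fold higher. Of the mRNA decay factors and the processing genes 0 were past 2-fold. Of 9 cytokines compared, 2 were past 2-fold higher and 1 was past 2-fold lower. Csf3, the granulocyte growth factor that acts on the cells Cxcl1, Cxcl2 and Cxcl5 attract, was among the higher ones (2.81 against 6.13 FPKM), and the alarmin Il33 was the lower one (7.43 against 1.27 FPKM).

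The leukocyte list differed between the genotypes in its summed level. Of 14 on the list, 6 reached 0.5 FPKM in a group, and 2 were listed at 0 in every group. Their summed level was 29.4 FPKM in Scr_300, 39.6 in Scr_600, 15.3 in Nfat5-KO_300 and 16.5 in Nfat5-KO_600, most of it from Cd14 (34.1 FPKM in Scr_600, but 12.5 in the knockout at that osmolality). Csf1r, the receptor of the macrophage growth factor, was at 3.27 FPKM in Scr_300, 3.203 in Scr_600, 1.17 in Nfat5-KO_300 and 1.65 in Nfat5-KO_600. Cd68 lay between 1.41 and 2.62 FPKM. None of the 10 markers of fibroblasts and endothelium reached 0.5 FPKM. Of 6 markers of intercalated cells 2 reached 0.5 FPKM, with Aqp6 at 1.08 FPKM in Scr_600, but 3.53 in the knockout at that osmolality. The other one, Atp6v1b1, went the other way, from 0.542 FPKM in Scr_600 to 0.149 in the knockout (log2 ratio -1.37). Of the principal cell markers, 9 were compared in Nfat5-KO_600 against Scr_600. At least 2-fold higher were 3 (Gata3, Hsd11b2 and Scnn1a, all genes: 3.76%), and 1 was lower (Kcnj1, all genes: 3.68%). The part of any of these in the chemokine values was not tested. In bulk RNA, fewer cells that make a transcript and less of it per cell cannot be told apart.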

How the data were processed

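Per the labels and the study's methods, adapter, poly-N and low-quality reads were removed, reads were mapped to GRCm38/mm10 with HISAT2, and HTSeq counted reads per gene. Versions and annotation release are not given in the sources used here. The deposited values are FPKM, 1 per gene and group, made by the authors, and how they combined the libraries of a group is not given in the sources used here. Of 54839 rows, 2436 held no value. After 311 exact duplicates and 37 symbols with several rows were removed, 52015 genes were used, 13414 of them with at least 0.5 FPKM in a group. Log2 ratios of FPKM + 0.1 were taken where 1 or both of the compared groups reached 0.5 FPKM, and understate the change of low genes. No ratio is printed if a group is under 0.1 FPKM. The limma test considered for values per library could not be run. The choices were varied with a pseudocount of 0.01 or 1, a minimum mean of 1 FPKM, no minimum, and scaling by median-of-ratios factors (1.02 in Scr_300, 0.985 in Scr_600, 1.02 in Nfat5-KO_300, 0.977 in Nfat5-KO_600). The 10 genes and the gene lists were chosen with earlier results of these data known. Genes of a list were named if past 2-fold with at least 0.5 FPKM in both groups (up to 4 per comparison), as receptors or sheddases of the 10 genes, or as defining markers. Nearest genes were the 3 at the smallest distance, for members spanning at least 1 on the log2 scale. Named outside this rule, after their values were seen, were the neighbours of the cluster, Ccrl2, Csf1, Tnf, Cxcl17, Nfkbia, Nfkb1, Rela, Kcnj1, Cd68, Atp6v1b1 and epithelial markers. Steps were tested on simulated data. Python 3.11.15, numpy 2.4.6, pandas 2.3.3 and matplotlib 3.10.9 were used. The motif patterns were searched on both strands.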

Additional observations from a re-analysis of the deposited data

Results flagged for a closer look

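From 300 to 600 mosmol/kg, Ccl20 and Cxcl5 had opposite directions in the genotypes, and the difference was not tested because the table has 1 value per group. Ccl20 had a log2 ratio of 0.56 with the scramble guide against -1.70 in the knockout, a difference of -2.25. Cxcl5 had one of 0.36 with the scramble guide against -1.01 in the knockout, a difference of -1.37. Whether both knockout clones share these directions cannot be read from the group values.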

How the results depend on the processing

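No paired analysis was possible because the columns carry no libraries, and leaving out a library could not be run for the same reason. The counts of chemokines at least 2-fold apart moved past 1.5 times in 1 of the comparisons: in Nfat5-KO_300 against Scr_300 the count of 1 became 0 with a pseudocount of 1 and 0 with a mean of at least 1 FPKM, since it rests on Ccl2 at under 1 FPKM. In Nfat5-KO_600 against Scr_600 the count, Ccl2 included, was 5 under all 5 alternatives. Of 180 values of single chemokines under the alternatives, 179 kept their side of 2-fold, and the exception was Cxcl5 in Nfat5-KO_600 against Nfat5-KO_300 (-0.95 with median-of-ratios factors). Dropping the minimum or asking for a mean of at least 1 FPKM changes only which genes are compared. Single ratios under those settings were the same by construction, so they are no check. With median-of-ratios factors 2 ratios near 0 changed sign, Cxcl5 in Nfat5-KO_300 against Scr_300 (0.0039 to -0.0026) and Cx3cl1 in Nfat5-KO_600 against Scr_600 (-0.0024 to 0.0091). The counts over all genes moved more, in part because other numbers of genes were compared. With a pseudocount of 1 the genes at least 2-fold apart were 135 instead of 530 in Nfat5-KO_300 against Scr_300, 338 instead of 972 in Nfat5-KO_600 against Scr_600, 375 instead of 992 in Scr_600 against Scr_300, 489 instead of 1346 in Nfat5-KO_600 against Nfat5-KO_300 and 304 instead of 944 for the difference between genotypes. Without a filter these were 1228, 1884, 1835, 2211 and 2149, or 4.68%, 6.81%, 7.48%, 7.76% and 7.26% of the genes compared, and with a mean of at least 1 FPKM 259, 548, 553, 855 and 463. The limit below which a chemokine was too low to judge left out 2 genes at 0.1, 0.5 and 1 FPKM. The depth of the libraries is unknown, so the error of low values such as those of Ccl2 in Nfat5-KO cells is unknown too.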
